A study of Mus musculus with 8 samples.

Results

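The nephric duct lineage transcription factor genes are a list of 9 genes, Pax2, Pax8, Lhx1, Emx1, Emx2, Gata2, Gata3, Tfap2a and Tfap2b, out of 21883 protein-coding genes. For each gene, peaks of acetylated histone H3 lysine 27 (H3K27ac) were taken from its RefSeq span in mm10 plus 50 kb on each side. H3K27ac was mapped by chromatin immunoprecipitation and sequencing in mpkCCD clone 11 cells, a mouse cortical collecting duct line that is a single clone. Confluent cells on permeable supports were placed for 24 h in medium without serum or hormones. They then received either 0.1 nM dDAVP, a vasopressin analogue selective for the V2 receptor, or vehicle for a further 24 h. There were 2 experiments, each with a dDAVP and a vehicle library, and each library gave 1 peak list called against its own input. Whether the 2 experiments used separately grown cultures is not given in the labels.

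The nephric duct is the epithelial tube that gives rise to the ureteric bud and, by branching, to the collecting duct. Pax2 and Pax8 encode paired-box factors that act together in specifying the nephric lineage. Gata3 encodes a zinc finger factor that acts downstream of them in the duct, and Lhx1 a LIM homeodomain factor needed for duct growth. Emx2 encodes a homeodomain factor required in the ureteric bud, while its relative Emx1 is best known from the cerebral cortex. Gata2 encodes a zinc finger factor of urogenital development that is also made in collecting duct cells, and Tfap2a and Tfap2b encode AP-2 factors, the second of which acts in distal nephron development. H3K27ac marks active promoters and enhancers, and wide H3K27ac domains are often found at genes of cell identity.

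In experiment 1 the dDAVP list had 37235 peaks covering 99.0 Mb, and the vehicle list 39745 peaks covering 104 Mb. In experiment 2 the dDAVP list had 20124 peaks covering 33.5 Mb, and the vehicle list 29597 peaks covering 56.9 Mb. Each list rested on 27.9 to 32.7 M immunoprecipitated tags. The dDAVP list thus covered 0.951 times the bases of the vehicle list in experiment 1 and 0.59 times in experiment 2, a difference of whole lists that touches every comparison of treatments given here. All 5 principal cell markers examined (Aqp2, Aqp3, Avpr2, Scnn1a and Hsd11b2) had a promoter or gene end called in all 4 lists, and none of 4 intercalated cell markers or 3 endothelial and leukocyte markers was called in any. Of other markers, Lrp2 of the proximal tubule was called in all 4 lists, Slc12a3 of the distal tubule in dDAVP of experiment 1 alone, and Col1a1 of fibroblasts in both lists of experiment 1. The peak lists come from bulk chromatin, so fewer cells with the mark and less of the mark per cell cannot be told apart.

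The promoter sequences below show 3 pairs of related genes of which 1 was acetylated at its promoter in every list and the other was not. They are the RefSeq promoters of GRCm38.p6, the assembly behind mm10, from 250 bases before to 50 bases after the transcription start, read 5′ to 3′ on the gene's strand. Capitals mark GCCNNNGGC, an AP-2 motif, or TAATTA, a homeodomain motif. Both motifs read the same on either strand, and none of the matches printed overlaps another. GCCNNNGGC was present in 19.9% and TAATTA in 4.53% of 21262 promoters of protein-coding genes.
Emx2, chr19:59458440-59458739, plus strand, called in all 4 lists: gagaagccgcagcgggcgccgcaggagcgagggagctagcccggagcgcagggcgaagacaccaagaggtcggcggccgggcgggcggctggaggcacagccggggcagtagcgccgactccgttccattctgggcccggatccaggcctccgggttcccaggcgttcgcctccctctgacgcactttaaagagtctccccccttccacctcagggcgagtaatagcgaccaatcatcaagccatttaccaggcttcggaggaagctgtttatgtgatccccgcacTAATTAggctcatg
Emx1, chr6:85187681-85187980, plus strand, called in no list: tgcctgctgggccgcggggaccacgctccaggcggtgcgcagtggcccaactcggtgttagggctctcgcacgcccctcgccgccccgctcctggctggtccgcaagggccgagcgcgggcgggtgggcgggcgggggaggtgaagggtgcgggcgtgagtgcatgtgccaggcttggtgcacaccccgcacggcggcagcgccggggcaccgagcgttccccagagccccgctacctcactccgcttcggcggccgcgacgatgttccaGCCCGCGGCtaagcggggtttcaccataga
Gata3, chr2:9878551-9878850, minus strand, called in all 4 lists: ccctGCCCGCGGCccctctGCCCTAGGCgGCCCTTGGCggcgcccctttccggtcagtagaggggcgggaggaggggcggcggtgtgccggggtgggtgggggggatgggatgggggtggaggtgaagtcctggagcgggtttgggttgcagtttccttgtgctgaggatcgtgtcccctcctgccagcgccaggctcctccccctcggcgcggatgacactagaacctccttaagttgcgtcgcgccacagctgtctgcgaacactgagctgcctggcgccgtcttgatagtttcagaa
Gata2 (second start), chr6:88198414-88198713, plus strand, not called in experiment 2: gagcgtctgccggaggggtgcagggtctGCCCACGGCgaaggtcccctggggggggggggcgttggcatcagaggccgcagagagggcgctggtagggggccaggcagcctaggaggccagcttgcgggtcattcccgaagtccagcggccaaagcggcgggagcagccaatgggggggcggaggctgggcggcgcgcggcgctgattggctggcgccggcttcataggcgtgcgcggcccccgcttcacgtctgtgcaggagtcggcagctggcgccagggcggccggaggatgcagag
Tfap2a (first start), chr13:40734871-40735170, minus strand, called in all 4 lists: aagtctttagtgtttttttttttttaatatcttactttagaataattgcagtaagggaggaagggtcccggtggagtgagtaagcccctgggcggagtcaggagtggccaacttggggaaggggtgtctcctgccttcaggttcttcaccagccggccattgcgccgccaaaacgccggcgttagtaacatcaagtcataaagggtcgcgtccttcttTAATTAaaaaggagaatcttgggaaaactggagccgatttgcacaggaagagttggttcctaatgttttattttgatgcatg
Tfap2b, chr1:19211804-19212103, plus strand, called in no list: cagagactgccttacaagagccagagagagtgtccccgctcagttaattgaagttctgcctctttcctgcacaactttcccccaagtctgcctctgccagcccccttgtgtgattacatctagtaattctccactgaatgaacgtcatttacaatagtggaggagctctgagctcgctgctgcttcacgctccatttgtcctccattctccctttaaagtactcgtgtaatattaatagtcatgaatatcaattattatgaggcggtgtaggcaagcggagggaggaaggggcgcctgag

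Gata3 held 3 matches of the AP-2 motif, and Emx1 and the second Gata2 start held 1 each. Emx2 and the first Tfap2a start held 1 TAATTA each, and Tfap2b held neither motif. Among the starts not printed, the second of Pax2 held 2 AP-2 matches, and the other starts of Pax2, those of Pax8 and Lhx1, the first of Gata2 and the second of Tfap2a held neither motif. The cAMP response element TGACGTCA, the motif AGATAA of GATA factors and the AP-1 motif TGACTCA, searched on both strands, were found in none of the 13 member promoters, against 2.23%, 9.65% and 4.66% of all promoters. The absence of these letters from a 300-base window says nothing of binding elsewhere.

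Across the members, calls at the promoter were not ordered by its number of CG dinucleotides. The promoters of Emx1 and Lhx1, called in no list, held 37 and 31 CG in 300 bases, and both Gata2 starts held 32 and 29. Pax8 held 7 and the 2 Tfap2a starts 11 and 15, with every one of their bases inside a peak in all 4 lists. Emx2 held 26, Gata3 22, and the 3 Pax2 starts 7, 23 and 30, all inside peaks in all 4 lists, while the uncalled Tfap2b promoter held 8. Over all protein-coding genes the median was 21 CG for promoters of genes called in all 4 lists and 4 for those of genes called in none.

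A promoter is taken here as 1 kb on either side of a transcription start, and a list calls it when a peak overlaps it by at least 1 bp. The promoters of Pax2, Pax8, Emx2, Gata3 and Tfap2a were called in all 4 lists, 5 of 9, where 46.9% of 17491 protein-coding genes with a known start were called in all 4. At each of their 8 starts the peaks covered all 2001 bases of the promoter in every list. Those of Lhx1, Emx1 and Tfap2b were called in no list, 3 of 9, against 44.7% of all genes. Gata2 was called in experiment 1 alone and only at its second start, which had 1156 covered bases with dDAVP and 199 with vehicle. The share of called members is thus close to the share of called genes, while the peaks at the 5 members were wider than most promoter peaks.

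All 5 called promoters lay in peaks of at least 10 kb in all 4 lists, as did 51 of the 17491 genes (0.292%). The 10 kb limit was chosen after the widths had been seen. The shortest of these 20 peaks, at Emx2 in dDAVP of experiment 2, was 12869 bp long, where the median of the longest promoter peak per called gene was 2638 bp with dDAVP and 2615 bp with vehicle in the first experiment, and 1416 bp with dDAVP and 1717 bp with vehicle in the second. Gata2 was on the other side, with peaks of 1156 bp with dDAVP and 632 bp with vehicle in experiment 1.

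**Figure D1:**
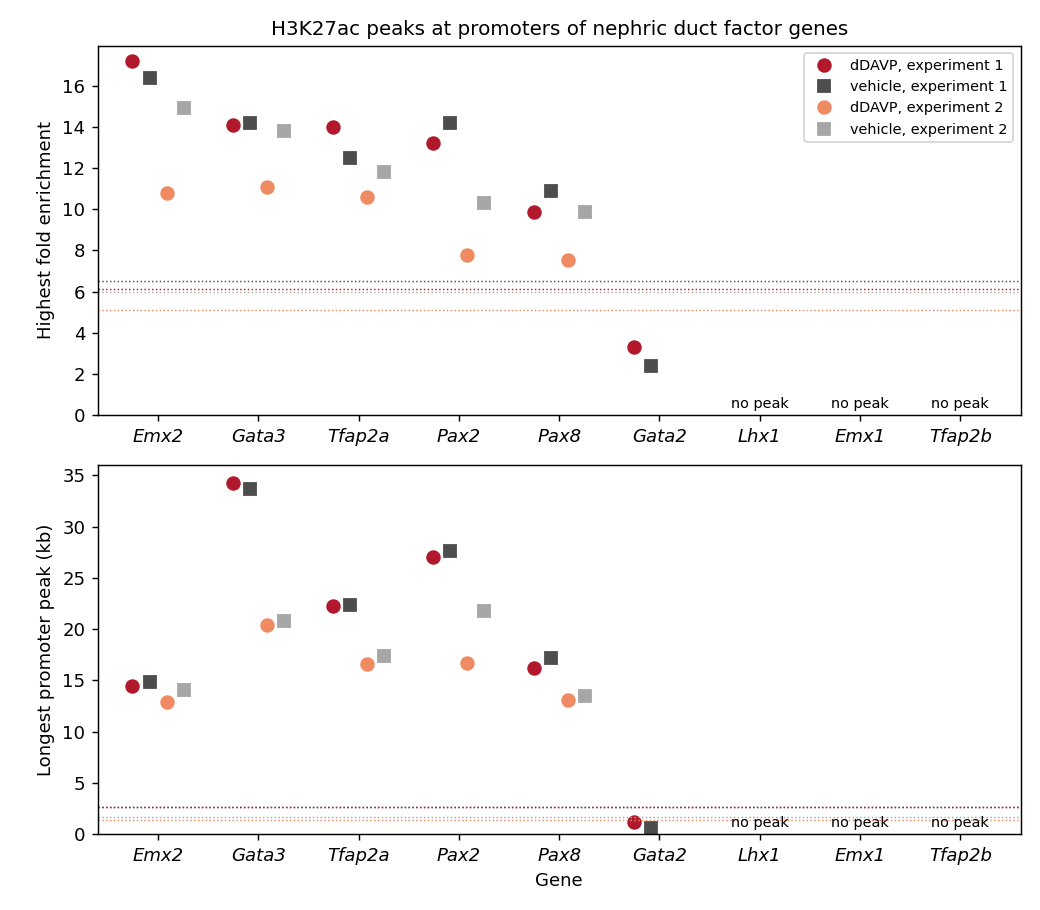
Highest fold enrichment (top) and longest peak in kb (bottom) among peaks at each gene's promoter, with 1 point per list, circles for dDAVP and squares for vehicle, and dotted lines for the median over all genes with a promoter peak in that list. The 5 genes called in all 4 lists lie above every median in both panels, with folds from 7.51 to 17.2, and Gata2 lies below them.

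Gata3, which encodes the zinc finger factor downstream of Pax2 and Pax8, carried the widest of these peaks in experiment 1. Its promoter peak was 34313 bp with dDAVP and 33718 bp with vehicle in the first experiment, and 20418 bp with dDAVP and 20829 bp with vehicle in the second. The dDAVP peak of experiment 2 was the 7th longest of its list. The authors' fold enrichment, the ratio of tag coverage to local background, was 14.1 with dDAVP and 14.2 with vehicle in the first experiment, and 11.1 with dDAVP and 13.8 with vehicle in experiment 2. In all 4 lists the peak began 13.4 to 14.6 kb upstream of the start used here, over the noncoding RNA genes 4930412O13Rik and 9230102O04Rik. The annotated span of Gata3 runs from -9.353 to 21.522 kb around that start, so part of this upstream stretch lies inside the gene. The peak reached 19.8 kb downstream with dDAVP and 19.2 kb with vehicle in experiment 1, against 7.04 and 7.41 kb in experiment 2. The lists of the 2 experiments thus differed more on the 3′ side than on the 5′ side.

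Emx2, the homeodomain factor gene of the ureteric bud, had the highest fold of the members in 3 of 4 lists, and Gata3 in the fourth. The fold at Emx2 was 17.2 with dDAVP and 16.4 with vehicle in experiment 1, the 2nd and 4th highest of all peaks in those lists. In experiment 2 it was 10.8 with dDAVP and 14.9 with vehicle, ranked 128 and 66. The peak was compact and of similar length in every list, 14475 bp with dDAVP and 14860 bp with vehicle in the first experiment, and 12869 bp with dDAVP and 14080 bp with vehicle in the second. It spanned the whole gene of 6668 bp and the end of the antisense gene Emx2os, and these data do not tell the strands apart.

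Tfap2a, an AP-2 factor gene, had peaks of 22260 bp with dDAVP and 22391 bp with vehicle in the first experiment, and of 16569 bp with dDAVP and 17352 bp with vehicle in the second. Its fold was 14.0 with dDAVP and 12.5 with vehicle in the first experiment, and 10.6 with dDAVP and 11.8 with vehicle in experiment 2. The direction of fold thus differed between the experiments, as it did at Emx2.

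Pax2, the paired-box factor gene, had peaks of 27072 bp with dDAVP and 27660 bp with vehicle in the first experiment, and of 16742 bp with dDAVP and 21804 bp with vehicle in the second. They took in all 3 starts, and the fold was 13.2 with dDAVP and 14.2 with vehicle in the first experiment, and 7.77 with dDAVP and 10.3 with vehicle in experiment 2. In dDAVP of experiment 2 a separate peak upstream, with a fold of 9.62, lay in the same merged region and left its covered bases at 21388 with dDAVP and 21804 with vehicle. Pax8, its paralog, had the lowest fold of the 5 in every list, 9.86 with dDAVP and 10.9 with vehicle in the first experiment, and 7.51 with dDAVP and 9.88 with vehicle in experiment 2. Its peaks measured 16199 bp with dDAVP and 17159 bp with vehicle in the first experiment, and 13122 bp with dDAVP and 13472 bp with vehicle in the second. Ordered by fold, Tfap2a and Pax2 came between Emx2 or Gata3 above and Pax8 below in every list, and changed places with each other in vehicle of experiment 1. Each fold is 1 value per list with no error of its own, so neighbours in this order were not told apart. Over all genes with a promoter peak, the median of the highest fold was 6.14 with dDAVP and 6.49 with vehicle in experiment 1. In experiment 2 this median was 5.08 with dDAVP and 5.99 with vehicle. The lower folds with dDAVP there are thus not particular to these genes.

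**Figure D2:**
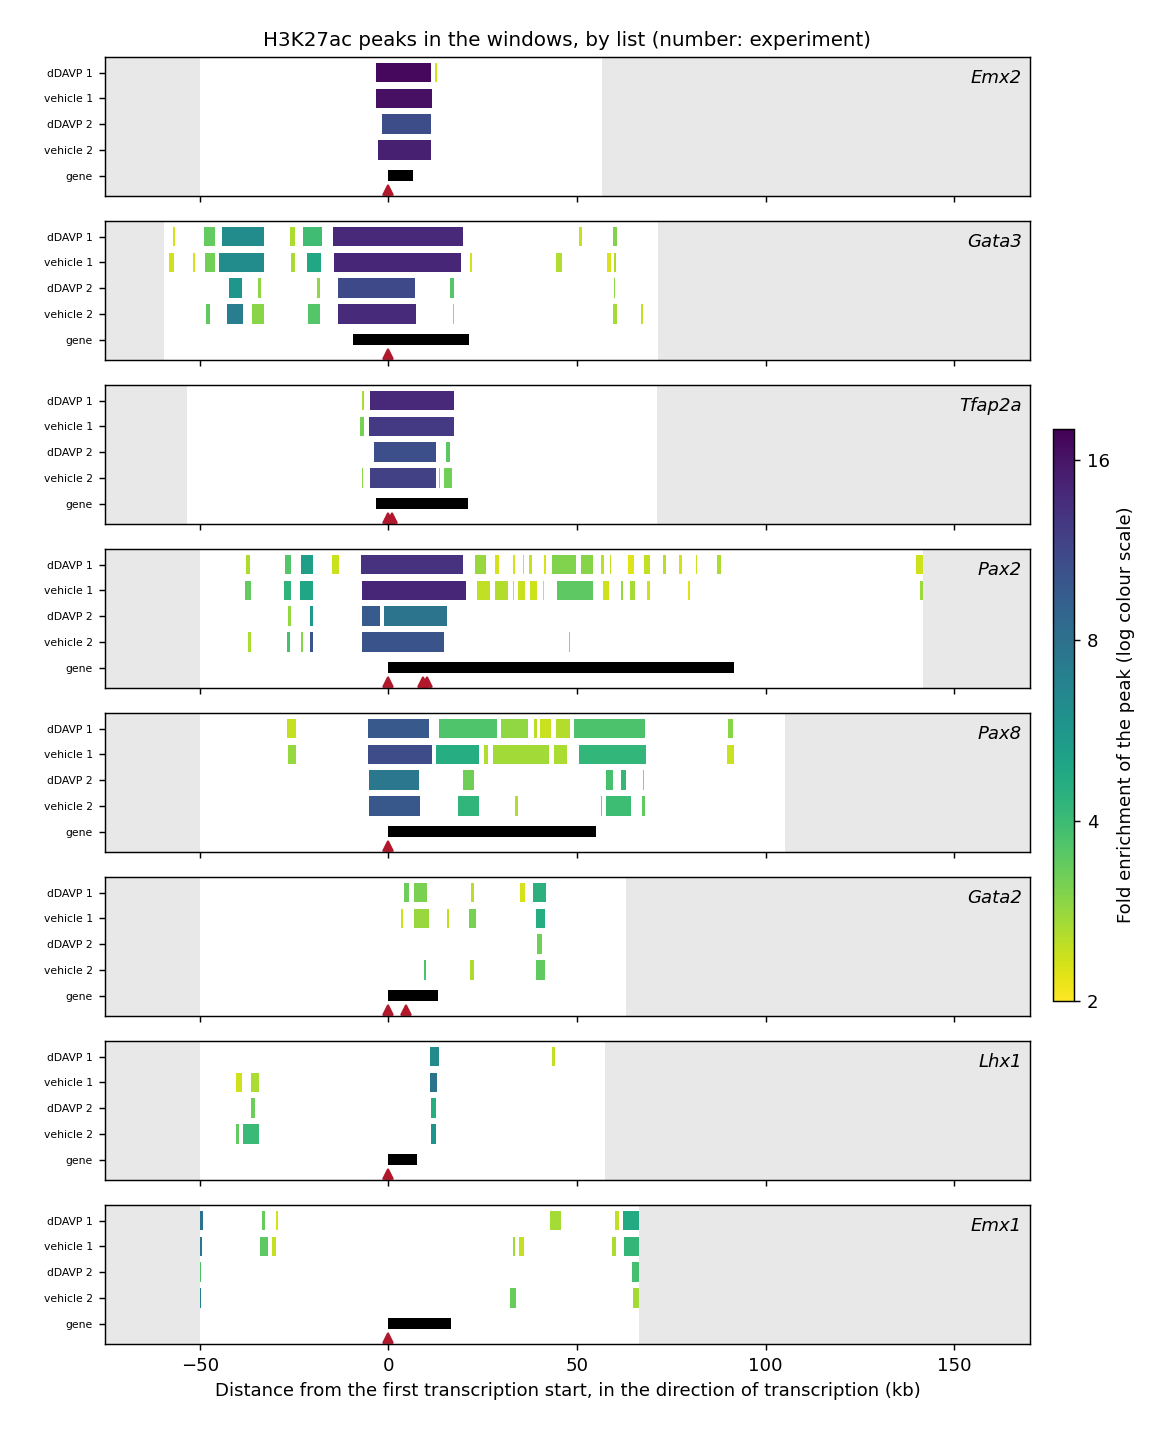
Peaks of the 4 lists in the windows of 8 genes, drawn against the distance in kb from the first transcription start in the direction of transcription; colour gives the authors' fold, black bars the gene span, triangles the starts, and grey the area outside the window. Wide peaks of high fold sit over the starts of Emx2, Gata3, Tfap2a, Pax2 and Pax8 in all 4 rows, and the weaker peaks around them are mostly in the experiment 1 rows.

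In these promoter domains dDAVP minus vehicle ran from -960 bp at Pax8 to 595 bp at Gata3 in experiment 1, and from -2046 bp at Tfap2a to 254 bp at Gata3 in experiment 2. Bases covered in the promoter region, the merged peaks of the 4 lists that overlap the promoter, were for Gata3 34313 with dDAVP and 33718 with vehicle in the first experiment, and 21371 with dDAVP and 21117 with vehicle in the second. Gata3 was the only member with more promoter region bases with dDAVP in both experiments. In experiment 2, however, its peak over the promoter itself was shorter with dDAVP, 20418 bp against 20829 bp with vehicle. The other bases came from a separate peak downstream in the merged region. It lay 16.3 to 17.3 kb from the start with dDAVP (fold 3.61) and 17.1 to 17.4 kb with vehicle (fold 2.62). The ratio of dDAVP to vehicle over the 5 members ran from 0.944 at Pax8 to 1.02 at Gata3 in experiment 1, and from 0.896 at Tfap2a to 1.01 at Gata3 in experiment 2. In experiment 2 the median of the 5 was 0.974, beside 0.792 over all 8202 genes called in all 4 lists and 0.912 over the other 46 genes with promoter peaks of at least 10 kb. In experiment 1 the order was the other way, with 0.979 for the 5 beside 0.995 and 1.0 for those 2 sets of genes.

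Outside the promoter regions most of the windows held fewer covered bases with dDAVP, most of all in experiment 2. Pax8 had 52226 such bases with dDAVP and 52458 with vehicle in the first experiment, and 6425 with dDAVP and 13752 with vehicle in the second. Gata3 had 22433 with dDAVP and 24838 with vehicle in the first experiment, and 5275 with dDAVP and 12914 with vehicle in the second. Pax2 had 32563 with dDAVP and 33158 with vehicle in the first experiment, and 1520 with dDAVP and 3459 with vehicle in the second. The ratios in experiment 2 were 0.467, 0.408 and 0.439 for these 3 genes. The whole dDAVP list, promoter peaks included, covered 0.59 times the bases of the vehicle list there. Of the other members with such bases in both vehicle lists, Lhx1 had 0.34, Gata2 0.343 and Emx1 0.718, and Tfap2a had 0 bases with dDAVP. In experiment 1 the ratios for Pax8, Gata3 and Pax2 were 0.996, 0.903 and 0.982, beside 0.951 for the whole list. All 7 members with such bases in both vehicle lists had fewer with dDAVP in both experiments, Gata2 by only 25 bp in experiment 1, where 54.9% of 12046 genes with such bases in both vehicle lists did. The part of list length in this direction was not tested.

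**Figure D3:**
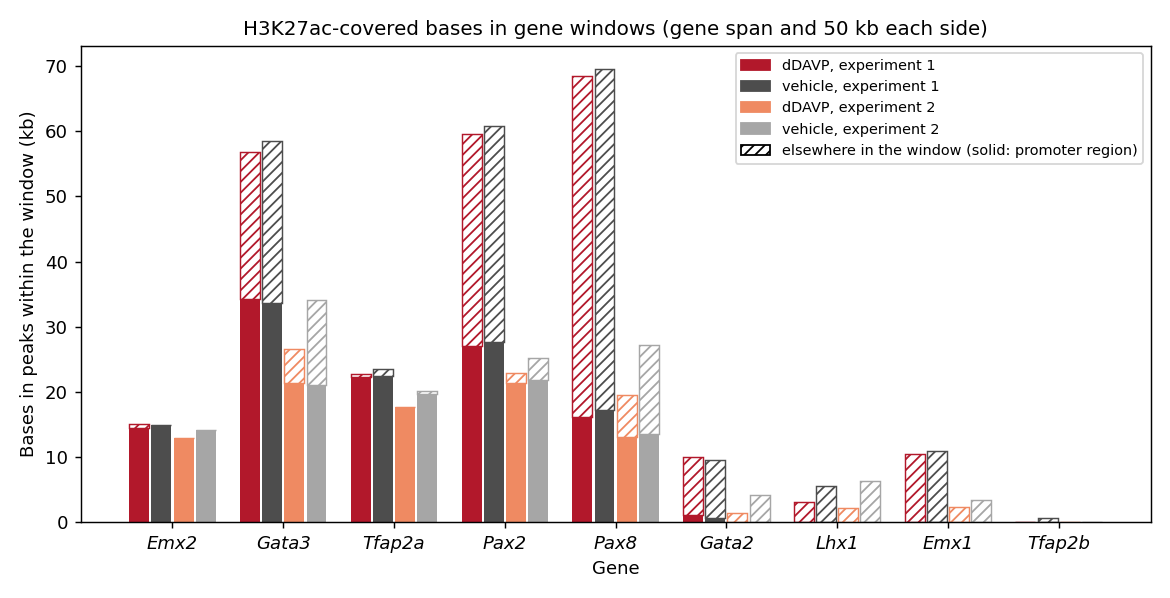
Bases inside peaks within each gene's window, in kb, with 1 bar per list (dDAVP left of vehicle in each experiment), solid for the promoter region and hatched for the rest of the window. The solid parts are of similar height for dDAVP and vehicle, while the hatched parts of Pax2, Pax8 and Gata3 are much lower in experiment 2 than in experiment 1.

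Over whole windows, 6 of the 8 members covered in all 4 lists had fewer covered bases with dDAVP in both experiments, Pax2, Pax8, Lhx1, Emx1, Gata3 and Tfap2a, and 0 had more in both. Among 15421 genes covered in all 4 lists, 54.5% had fewer and 1.56% more in both experiments. As a share of all bases its list covers, a scaling chosen after the data had been seen, 6 of the 8 were higher with dDAVP in both experiments (Pax2, Pax8, Emx1, Emx2, Gata3 and Tfap2a), beside 41.7% of genes, and 1, Lhx1, was lower in both, beside 19.3%. Of the 6 members with fewer bases, only Lhx1 kept its direction under this scaling. The part of list length in these directions was not tested. With 2 libraries against 2, an exact permutation test cannot give a two-sided p below 0.333, nor 2 pairs one below 0.5, so no member was tested.

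Lhx1, the LIM homeodomain factor gene, had the lowest ratio in both experiments of the 8 members covered in all 4 lists. Its window held 3076 covered bases with dDAVP and 5537 with vehicle in the first experiment, and 2177 with dDAVP and 6400 with vehicle in the second. Both vehicle lists lay above both dDAVP lists, which held for 1 of the 8 members and for 5.46% of the 15421 genes. Within experiments dDAVP minus vehicle was -2461 and -4223 bp (mean -3342 ± 1246, SD, n = 2 pairs). The ratios, 0.556 and 0.340, stood at percentiles 1.61 and 7.13 of all genes. None of these bases lay at the Lhx1 promoter. A region 11.0 to 13.4 kb downstream of the start, at the start of the neighbouring gene Aatf, was called in all 4 lists, with 2379 bases for dDAVP and 1833 for vehicle in the first experiment, and 1241 for dDAVP and 1444 for vehicle in the second. A pair of regions upstream held fewer bases with dDAVP. The nearer, 34.1 to 38.5 kb from the start (chr11:84559681-84564019), had 0 bases with dDAVP and 2131 with vehicle in the first experiment, and 936 with dDAVP and 4198 with vehicle in the second. The farther (chr11:84564366-84565941) was called in vehicle lists alone, with 1573 bases at fold 2.35 in experiment 1 and 758 bases at fold 3.38 in experiment 2, percentiles 9.94 and 46.2 of those lists. A further region of 697 bases, 43.4 to 44.1 kb downstream of the Lhx1 start, was called in dDAVP of experiment 1 alone. In experiment 1 the ratio for Lhx1 was above 1 with 25 kb flanks, at a -log10 q of at least 5, at a fold of at least 5 and in lists of equal length, 1.30 in each case. Without the ends of neighbouring genes it was 0.293 in experiment 1 and 0.189 in experiment 2. The ratio in experiment 2 was 0.859 with 25 kb flanks and 0.220 when peaks needed a -log10 q of 5 or more. With 25 kb flanks the window held only the region at the start of Aatf, so 1.30 and 0.859 are ratios at that neighbour's start. That region was also the only one of the window with a fold of at least 5 in experiment 1, 6.25 with dDAVP and 7.77 with vehicle. The 1.30 at a -log10 q of at least 5 and in lists of equal length is likewise the ratio of its 2379 to 1833 bases.

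Gata2, the zinc finger factor gene, had weak peaks that were fewest with dDAVP of experiment 2. Its window held 10068 covered bases with dDAVP and 9569 with vehicle in the first experiment, and 1432 with dDAVP and 4175 with vehicle in the second. The ratios were 1.05 in experiment 1 and 0.343 in experiment 2. In experiment 1 the ratio was 0.937 with 25 kb flanks, 0.997 without the ends of neighbouring genes and 1.79 in lists of equal length, and in experiment 2 it was 0.204 with 100 kb flanks. A region inside the gene, 6.8 to 10.8 kb downstream of the first start, held 3351 bases with dDAVP and 3974 with vehicle in the first experiment, and 0 with dDAVP and 495 with vehicle in the second. The 1 region of this window called in all 4 lists lay downstream of the gene (chr6:88232231-88235704), with folds of 4.43 with dDAVP and 4.63 with vehicle in the first experiment, and 3.21 with dDAVP and 3.41 with vehicle in experiment 2. Gata2 overlaps the noncoding RNA gene Gm38708, whose span ends just before the second Gata2 start. A transcription start of Gm38708 lies within 1 kb of both Gata2 promoter regions, so the peaks there cannot be given to one of these genes.

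Emx1 had no peak in its gene. Its window held 10506 covered bases with dDAVP and 10938 with vehicle in the first experiment, and 2413 with dDAVP and 3362 with vehicle in the second. The regions called in all 4 lists lay at the start of Spr, a gene of tetrahydrobiopterin synthesis, 49.1 kb or more upstream, and within the span of the neighbour Sfxn5, 62.4 kb or more downstream. A region within Sfxn5 (chr6:85220309-85221742) was called in vehicle lists alone, with 580 bases in experiment 1 and 1434 in experiment 2, at folds of 2.73 and 3.34. Tfap2b had 0 covered bases with dDAVP and 583 with vehicle in the first experiment, and 0 with dDAVP and 0 with vehicle in the second. That peak lay 1.2 to 1.7 kb upstream of the start used here and inside the annotated gene span, at fold 2.40.

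**Figure D4:**
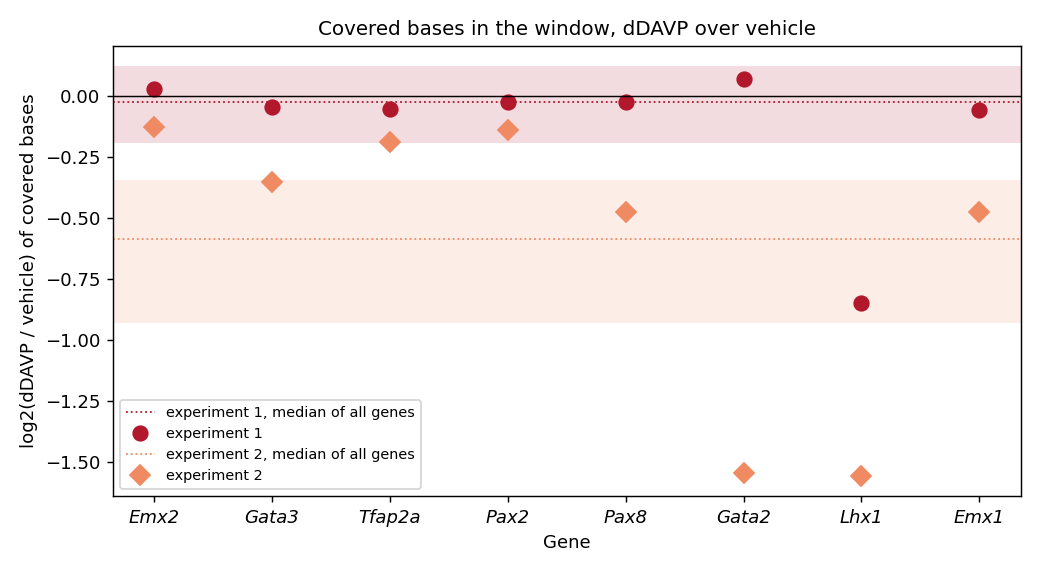
log2 of the ratio of dDAVP to vehicle covered bases in the windows of the 8 members covered in all 4 lists, with 1 point per experiment; dotted lines mark the medians and shaded bands the middle 50% of all genes in that experiment. Experiment 1 points lie near 0 except Lhx1, and in experiment 2 Gata2 and Lhx1 lie lowest while Emx2 and Pax2 lie highest.

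In experiment 2 the windows of the genes with wide promoter domains ranked above the median gene by this ratio. The group needed promoter peaks of at least 10 kb in all 4 lists, dDAVP of experiment 2 included. Their rank in that experiment is therefore partly set by the grouping. The windows of the other 46 genes with such peaks were not ranked apart. Emx2 had 12869 covered bases with dDAVP and 14080 with vehicle in that experiment, a ratio of 0.914 at percentile 93.6, and Pax2 a ratio of 0.907 at percentile 92.9. Tfap2a followed with 0.876 at percentile 89.8, Gata3 with 0.783 at 74.3, and Pax8 with 0.718 at 61.0. Emx1, with no promoter peak, had the same ratio as Pax8, 0.718 at percentile 60.9. The median over the 8 members was 0.975 in experiment 1 and 0.750 in experiment 2, beside 0.981 and 0.667 over all genes. In experiment 1 every member but Lhx1 stood between percentiles 44.4 and 68.1.

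The windows held 59 merged regions apart from the promoter regions, 22 of them at Pax2, 12 at Gata3, 8 at Emx1, 5 each at Pax8 and Gata2, 4 at Lhx1 and 1 each at Emx2, Tfap2a and Tfap2b. Of the 59, 11 were called in all 4 lists (18.6%, against 36.2% of all 45705 merged regions), and 18 in both lists of experiment 1 and in no other (30.5%, against 7296 of the 45705). Those 18 included 10 at Pax2, most of them inside the gene. The 45705 regions include promoter regions, whereas the 59 leave out those of the members, so the sets compared here are unlike in kind. In experiment 1 dDAVP called 46 of the 59 (78.0%, against 77.7% of all regions) and vehicle 47 (79.7%, against 83.4%). In experiment 2 dDAVP called 12 (20.3%, against 37.3% of all regions) and vehicle 21 (35.6%, against 56.2%), so the dDAVP list called fewer there over all regions too. Only 2 were called with vehicle in both experiments and never with dDAVP, those of Lhx1 and Emx1 described above, and 0 showed the reverse. Over all regions these classes made up 2.51% and 0.0635%. Of the 59, 9 lay within 1 kb of an end of another gene, and so did 5 of the 11 called in all 4 lists.

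Upstream of Pax2, regions 25.9 to 27.5 kb and 19.9 to 23.4 kb from the first start were called in all 4 lists. The nearer (chr19:44723225-44726708) had 3359 bases with dDAVP and 3481 with vehicle in the first experiment, and 710 with dDAVP and 1433 with vehicle in the second. Its fold was 5.27 with dDAVP and 4.89 with vehicle in the first experiment, and 5.50 with dDAVP and 10.2 with vehicle in experiment 2. Upstream of Gata3, a region (chr2:9911443-9923459) lay 32.8 to 44.9 kb from the start used here, which is inside the annotated gene span. It had 11083 bases with dDAVP and 12017 with vehicle in the first experiment, and 4006 with dDAVP and 7199 with vehicle in the second. Its fold, 6.22 with dDAVP and 6.25 with vehicle in the first experiment and 5.67 with dDAVP and 7.13 with vehicle in experiment 2, was the highest of the regions around Gata3. It overlaps ends of Taf3, a gene of a general transcription factor subunit, and of the noncoding RNA genes Gm13262 and Gm31290. At Pax8, the gene body downstream of the promoter and the end of the neighbour Psd4 were largely covered in experiment 1. The region from 12.7 to 43.3 kb had 26056 bases with dDAVP and 27569 with vehicle there, and 2872 with dDAVP and 6082 with vehicle in experiment 2. A transcription start of the gene Gm13415 lies in or within 1 kb of it, and an end of Gm13415 likewise at the Pax8 promoter region. The promoter region of Tfap2a has a start of Gm26688 so placed, and that of Pax2 an end of Gm35610. Peaks in these regions cannot be given to the members alone.

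Of 30 other genes of the nephric duct, ureteric bud and kidney epithelium, 13 were called in all 4 lists, 3 in some and 14 in none. These counts rest on known starts for 16 genes, of which 6 were called in all 4, beside 46.9% of all genes with a known start. For the other 14 they rest on both gene ends, and 7 were called in all 4, beside 41.9% of genes without a known start. Among those with the highest percentiles of fold were Grhl2, an epithelial grainyhead-like factor gene, with 13.7 for dDAVP and 14.1 for vehicle in experiment 1 and 11.0 for dDAVP and 13.9 for vehicle in experiment 2, and Eya1, a transcriptional coactivator gene of kidney development, with 10.9 for dDAVP and 11.3 for vehicle in experiment 1 and 7.62 for dDAVP and 9.18 for vehicle in experiment 2. Foxc1, Spry1, Elf3, Wnt7b, Cdh1 and Sox9 followed. Ret and Gfra1, which encode the receptor and coreceptor for the ligand GDNF, were called in none, and were named after their values had been seen. Of 21 paralogs of the members in the Pax, Lhx, Gata and Tfap2 families, 1 was called in all 4 lists, Pax9, with folds of 2.56 to 3.87. A further gene, Lhx4, was called in 3 lists and 19 were called in none. By known starts, 1 of 15 paralogs was called in all 4, beside the 46.9% of all genes, and by gene ends 0 of 6, beside 41.9% of genes without a known start.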

How the data were processed

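The data were 4 lists of H3K27ac peaks. MACS 2.1.1.20160309 made them without pooling, per the file headers, as broad peaks of 1 immunoprecipitated library over its matching input, with q limits of 0.01 (strong) and 0.1 (broad) and 1 tag kept per position. The submitters' processing notes name BWA, SAMtools and mm10. Pileup is the deposited signal (tag coverage) and fold enrichment the deposited ratio to local background. The columns for -log10 p-value and -log10 q-value, as deposited, had lost their names and were read by position. Such values rank or describe peaks within a list. The lists sit on the input records, while their headers name the immunoprecipitated library.

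Peaks on the 19 autosomes, X and Y were used. Starts came from RefSeq promoters (GRCm38.p6), which give one for all 9 members and 17491 protein-coding genes. Other genes used both ends. Covered bases, calls and merged regions were computed with Python 3.11.15 and pandas 2.3.3, and checked on simulated peaks. Alternatives were -log10 q or fold of at least 5, equal list lengths, other windows, flanks and overlaps, and leaving out libraries. All members are described. Of the other lists, the 10 called genes with the highest percentile of fold were to be named, and 2 of them are not reported here. The members and lists were chosen with earlier results of these data known.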

Additional observations from a re-analysis of the deposited data

Results flagged for a closer look

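At Emx2 and Gata2 the covered bases in the window went opposite ways in the 2 experiments. At Emx2 the ratio of dDAVP to vehicle was 1.02 in experiment 1 and 0.914 in experiment 2. At Gata2 it was 1.05 in experiment 1 and 0.343 in experiment 2. The value above 1 at Emx2 includes 671 bases of a region called in dDAVP of experiment 1 alone, and the promoter region gave 0.974 in that experiment. The experiment 1 ratio at Emx2 was 0.974 or 0.955 under 4 alternatives, and at Gata2 0.937 or 0.997 under 2, so that both experiments then lay below 1 where both gave a ratio. The difference between the experiments was not tested, and the whole dDAVP list was shorter in experiment 2. Groups of 2 libraries allowed no search for outlying samples.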

How the results depend on the processing

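The 5 promoters called in all 4 lists were 5 under every alternative tried. Members with fewer covered bases with dDAVP in both experiments, 6 as reported, were 3 at a -log10 q of at least 5 and in lists of equal length, and 1 by share of list bases. Members with more in both, 0 as reported, were 1 at a -log10 q of at least 5 and 6 by share of list bases. Vehicle-only flanking regions, 2 as reported, were 1 at a -log10 q of at least 5, in lists of equal length, when 50% of the region had to be covered and with 25 kb flanks, and 0 at a fold of at least 5. dDAVP-only flanking regions, 0 as reported, were 1 in lists of equal length. Leaving out 1 library at a time left 1 experiment with both lists, so the member counts were then those of that experiment alone. In experiment 2 they were 8 members with fewer bases and 0 with more. In experiment 1 they were 7 with fewer, Tfap2b among them, and 2 with more. The regions were 3 to 11 vehicle-only and 0 to 11 dDAVP-only, as only 3 lists then set the class. The highest values were 11 vehicle-only regions without vehicle replicate 2 and 11 dDAVP-only regions without dDAVP replicate 2, and 9 vehicle-only regions were found without dDAVP replicate 1.

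Of 104 recomputed window ratios of single members 24 crossed 1 (none was computed where a list had 0 bases). At a -log10 q of at least 5 these were, in experiment 1, Pax8 (1.08), Lhx1 (1.30), Emx1 (1.05), Emx2 (0.974) and Gata3 (1.02), and in experiment 2 Emx1 (1.03). At a fold of at least 5 they were Pax2 (1.10), Lhx1 (1.30), Emx1 (1.19) and Emx2 (0.974) in experiment 1. In lists of equal length they were Pax8 (1.08), Lhx1 (1.30), Emx2 (0.974) and Gata3 (1.04) in experiment 1 and Emx1 (1.34) in experiment 2. With equal lengths within each experiment they were Gata3 (1.01) in experiment 1 and Emx1 (1.34) in experiment 2. With 25 kb flanks they were Lhx1 (1.30), Gata2 (0.937) and Gata3 (1.00), with 100 kb flanks Emx1 (1.31) and Emx2 (0.955), and without ends of neighbouring genes Emx1 (1.08) and Gata2 (0.997), all in experiment 1. For Lhx1 the window with 25 kb flanks held only the region at the start of Aatf. Each 1.30 given for Lhx1 is the ratio of bases at that region. The cause of the other crossings was not tested. No paired analysis was possible because no result comes from a test; differences within the 2 pairs are given as values, and an exact test on 2 pairs cannot go below 0.5. Values of 1 peak list per library carry no error of their own, and read depth per region was not used here.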
